A study of Mus musculus with 6 samples.

Results

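Glucocorticoid-induced genes were read in whole brains of male FVB mice (FVB/N in the study's methods) at postnatal day 6, in which a human SRY transgene had been activated (hSRY-ON, 3 arrays) or had been left unrecombined (hSRY-OFF, 3 arrays). Both genotypes carried the Signalox-hSRY transgene, placed as a single copy at the H11 locus of chromosome 11 in one line. In hSRY-OFF mice the CAG promoter, which is active in nearly all cell types, drove DsRed2, and in hSRY-ON mice Cre recombinase passed on by a Ddx4-Cre mother had removed that cassette in the zygote, so that the same promoter drove FLAG-tagged human SRY together with EGFP. The hSRY-ON mice profiled did not themselves carry Ddx4-Cre. Mice with an unrecombined transgene would not come from Ddx4-Cre mothers, and the study calls its array controls age-matched. Genotype therefore cannot be told apart here from mother or litter. Each brain was read on an Illumina bead array, on which the brightness of a probe reports the amount of its transcript. The genes were Sult1a1, Fam107a, Fkbp5, Tsc22d3, Sgk1 (also listed under its older symbol Sgk), Ddit4, Errfi1, Nfkbia and Zbtb16, and every probe with one of these symbols was taken. They are known targets of glucocorticoids or stress hormones or, as Sult1a1, were grouped with them, and they were chosen by their difference between hSRY-ON and hSRY-OFF in these same arrays, with earlier results of these data known. Differences between the genotypes for these genes are therefore given as a description. Where the limma fit over all probes is quoted for them, its SE and intervals are for the difference of the means. Their variance is drawn partly from all probes. The calls of that fit are not evidence of a difference. The table held 9 probes for 8 of the genes, among 18138 gene symbols in all, and Zbtb16 was not analysed here. All 9 probes were detected above background on all 6 arrays.

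Glucocorticoids, of which corticosterone is the main one in the mouse, enter cells and bind the glucocorticoid receptor, a transcription factor held in the cytoplasm by chaperones. The bound receptor moves to the nucleus and attaches to short palindromic elements near its target genes. Many of the genes that it induces restrain hormone action, inflammation or growth, and several of them are used as readouts of hormone exposure in brain and other tissues.

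Because the genes were grouped as targets of this receptor, their promoters were read for its element. In build GRCm38.p6 the genes lie at chr7:126672865-126690443 (Sult1a1), chr14:8296270-8317607 (Fam107a), chr17:28398753-28486149 (Fkbp5), chrX:140539528-140600522 (Tsc22d3), chr12:55489409-55492647 (Nfkbia), chr10:21882184-21999903 (Sgk1), chr10:59949675-59951770 (Ddit4) and chr4:150853796-150868889 (Errfi1). The 250 bases before each annotated start were taken from RefSeq promoters of that build, which matched all 8 genes with 18 start sites, together with the 50 bases after each start. The 6-base arm AGAACA and its other-strand form TGTTCT were searched, as was the full palindrome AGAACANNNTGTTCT with at most 2 mismatches over its 12 fixed positions. The full form overlaps the arm wherever an arm within it is exact. An arm was present in 7 of the 18 windows, against 19.0% of all 32851 promoter windows, and the full form in 5 of the 18, against 1.84% of all. The Fam107a windows from 8309728 and 8309730 overlap and hold the same site, while other windows of a gene can lie far apart. No share by gene was taken over all promoters. The 5 windows belonged to 3 genes, Sgk1, Sult1a1 and Fam107a. Their upstream sequences are shown because they hold the full form, in capitals, and any further arm, also in capitals.
Sgk1, chr10:21993640-21993889, plus strand: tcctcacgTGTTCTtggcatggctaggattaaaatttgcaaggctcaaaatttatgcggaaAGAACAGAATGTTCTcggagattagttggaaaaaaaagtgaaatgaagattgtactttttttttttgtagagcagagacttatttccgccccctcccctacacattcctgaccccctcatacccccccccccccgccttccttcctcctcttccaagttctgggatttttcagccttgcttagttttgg
Sult1a1, chr7:126676419-126676668, minus strand: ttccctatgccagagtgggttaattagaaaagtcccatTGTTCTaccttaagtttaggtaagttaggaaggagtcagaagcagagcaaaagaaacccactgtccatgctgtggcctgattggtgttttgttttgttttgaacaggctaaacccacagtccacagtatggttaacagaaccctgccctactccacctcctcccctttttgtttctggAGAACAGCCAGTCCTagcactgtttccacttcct
Fam107a, chr14:8309780-8310029, minus strand: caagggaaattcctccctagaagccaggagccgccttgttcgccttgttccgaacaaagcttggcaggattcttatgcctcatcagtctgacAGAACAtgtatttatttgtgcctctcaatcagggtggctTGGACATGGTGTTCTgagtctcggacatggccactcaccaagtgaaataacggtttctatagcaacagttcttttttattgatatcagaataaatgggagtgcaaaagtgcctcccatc
This Sgk1 window held the palindrome with 0 mismatches, starting 189 bases before that start site, and a second Sgk1 window held it with 2. The matches in Sult1a1, 34 bases before the start, and in Fam107a, 119 bases before the start, had 2 mismatches each. No match was present in any window of Fkbp5, Ddit4, Nfkbia or Errfi1, which says only that these letters are not in these windows, and Tsc22d3 had a lone arm in 1 of its 3 windows. Which start site the array probes read was not examined. A match is a description of the letters and was not tested as a binding site.

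The data fell into 3 patterns. Sult1a1 was higher in hSRY-ON by nearly the same amount on every array. Fam107a and Fkbp5 were higher on every array but to differing extents. The remaining genes were highest on hSRY-ON array 1, and most of them were close to hSRY-OFF on hSRY-ON array 3. Values below are normalized log2 signals, on which a difference of 1 is a doubling, and probes are compared between arrays and not with each other.

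Sult1a1 (ILMN_2745370) encodes a cytosolic sulfotransferase that adds sulfate to phenols, including catecholamines and drugs. On arrays 1, 2 and 3 in turn, its signal was 7.73, 7.93 and 7.81 in hSRY-OFF and 9.42, 9.61 and 9.64 in hSRY-ON. The lowest hSRY-ON array lay 1.49 above the highest hSRY-OFF array. The difference of the means was 1.73 (SE 0.097, n = 3 per group), or 3.31-fold, and the SD was 0.10 in hSRY-OFF and 0.12 in hSRY-ON. Sult1a1 was the only gene of the 8 in which hSRY-ON array 3 was the highest, although the 3 values lay within 0.22 of each other.

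Fam107a (ILMN_2768972), also known as DRR1, encodes an actin-binding protein that is known to respond to stress hormones in the brain. Its signal was 7.27, 7.17 and 7.17 in hSRY-OFF and 9.45, 9.68 and 8.57 in hSRY-ON. The lowest hSRY-ON array lay 1.30 above the highest hSRY-OFF array. Array 3 was nevertheless 1.11 below array 2, against a range of 0.097 among the hSRY-OFF arrays. The difference of the means was 2.03 (SE 0.26, n = 3 per group), or 4.08-fold (1.35 on the log2 scale without background correction). In the deposited signals the probe read 331, 293 and 288 in hSRY-OFF and 860, 925 and 510 in hSRY-ON.

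Fkbp5 (ILMN_2718266) encodes a co-chaperone that lowers the receptor's affinity for hormone and so closes a feedback loop on its action. Its signal was 8.46, 8.71 and 8.62 in hSRY-OFF and 9.55, 9.34 and 9.22 in hSRY-ON. All 3 hSRY-ON arrays were above hSRY-OFF, and the gap between the groups was 0.51. The difference of the means was 0.77 (SE 0.11, n = 3 per group), or 1.71-fold. The 3 hSRY-ON values spanned 0.33, with array 1 the highest and array 3 the lowest, a little more than the hSRY-OFF range of 0.25.

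**Figure D1:**
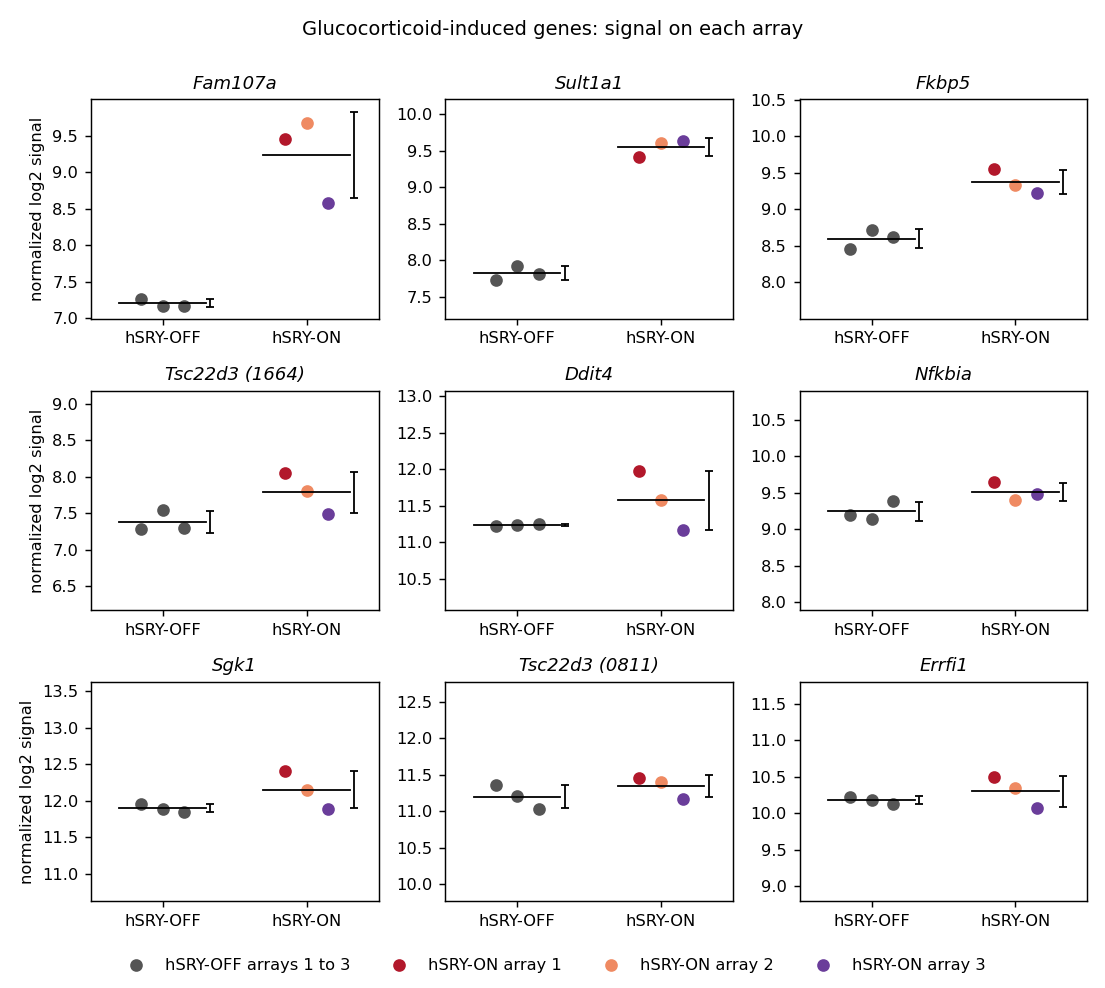
Normalized log2 signal (vertical axis) of the 9 probes on each array, with hSRY-OFF arrays in grey and hSRY-ON arrays 1, 2 and 3 in red, orange and purple. Lines are group means and bars to their right are SD (n = 3), every panel spans the same number of log2 units, and Tsc22d3 panels carry the last 4 digits of the probe. The purple array lies at the level of hSRY-OFF for Ddit4, Sgk1, Errfi1 and the second Tsc22d3 probe and far above it for Sult1a1.

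Tsc22d3, also known as Gilz, and Nfkbia both encode proteins that restrain inflammatory transcription, the latter by holding NF-kB in the cytoplasm. Probe ILMN_2701664 of Tsc22d3 read 7.28, 7.55 and 7.30 in hSRY-OFF and 8.05, 7.81 and 7.49 in hSRY-ON. Arrays 1 and 2 were above all of hSRY-OFF, while array 3 fell among them. The difference was 0.41 with a 95% interval of 0.041 to 0.78 (SE 0.16, n = 3 per group), and it was 0.23 without background correction. The second Tsc22d3 probe, ILMN_3150811, read 11.36, 11.21 and 11.04 in hSRY-OFF and 11.46, 11.40 and 11.17 in hSRY-ON. It differed by 0.14 with an interval of -0.14 to 0.42 and by 0.059 to 0.23 on leaving out single arrays. Both probes of this gene ordered the hSRY-ON arrays alike, and whether their differences were unequal was not tested. Nfkbia (ILMN_3001914) read 9.20, 9.15 and 9.39 in hSRY-OFF and 9.64, 9.40 and 9.48 in hSRY-ON. Its groups did not overlap, but by only 0.0059, and the difference was 0.26 with an interval of 0.015 to 0.51 (SE 0.10, n = 3 per group).

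Sgk1, Ddit4 and Errfi1 encode signalling regulators. Sgk1 is a kinase that acts on ion channels and transporters, Ddit4 (also known as Redd1) restrains the growth kinase complex mTORC1, and Errfi1 (also known as Mig6) restrains the epidermal growth factor receptor. Sgk1 (ILMN_1213954) read 11.95, 11.89 and 11.84 in hSRY-OFF and 12.40, 12.15 and 11.89 in hSRY-ON. Ddit4 (ILMN_2993109) read 11.22, 11.23 and 11.25 in hSRY-OFF and 11.97, 11.58 and 11.17 in hSRY-ON. Errfi1 (ILMN_2714031) read 10.23, 10.19 and 10.12 in hSRY-OFF and 10.49, 10.34 and 10.07 in hSRY-ON. In all 3 genes arrays 1 and 2 lay above hSRY-OFF, and array 3 lay below every hSRY-OFF array for Ddit4 and Errfi1 and between them for Sgk1. The 3 hSRY-OFF values of Ddit4 lay within 0.036 of each other, while its hSRY-ON values spanned 0.81. The differences of the means were 0.34 for Ddit4 (interval -0.11 to 0.78), 0.25 for Sgk1 (interval -0.059 to 0.57) and 0.12 for Errfi1 (interval -0.16 to 0.40). Leaving out hSRY-ON array 1 moved them to 0.14, 0.13 and 0.027, and leaving out hSRY-ON array 3 to 0.53, 0.38 and 0.23. In whole brain, a change in the number of cells of one type and a change of RNA per cell cannot be told apart, and this holds for every value here.

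All 9 probes had a higher mean in hSRY-ON, with a median log2 difference of 0.34 against 0.0048 over all 14215 tested probes. In the limma fit over all of these probes, 3 of the 9 (Fam107a, Fkbp5 and Sult1a1) lay under the threshold used for all probes (an adjusted p under 0.05), where 0.844% of tested probes were called higher and 2.17% were called in either direction. The groups did not overlap for 4 of the 9, the same 3 and Nfkbia, where 13.5% of tested probes had all 3 hSRY-ON arrays above all 3 hSRY-OFF arrays. As the genes were chosen with this contrast in view, nothing is read from these counts. The count of 3 moved when single arrays were left out. With arrays 1 or 3 of hSRY-OFF or array 2 of hSRY-ON left out it was 0, when 3, 4 and 4 of the 9 had an unadjusted limma p under 0.05. In those 3 fits 0 of all tested probes were called and 17.9%, 17.3% and 19.3% had an unadjusted p under 0.05. Leaving out array 2 of hSRY-OFF or array 1 of hSRY-ON gave 1, Sult1a1, which was the only probe called in either fit, and leaving out array 3 of hSRY-ON gave 3, among 417 called in all. The median difference moved to 0.19 on leaving out hSRY-ON array 1, to 0.53 on leaving out hSRY-ON array 3 and to 0.19 in the deposited signals with no normalization. All 9 differences were above 0 in each fit with an array left out.

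Whether the genes ranked the 3 hSRY-ON brains alike was read next. Of the 9 probes, 6 ordered the arrays 1 over 2 over 3, and these were the probes of Fkbp5, Ddit4, Sgk1 and Errfi1 and both probes of Tsc22d3. Nfkbia also had array 1 the highest, but array 2 the lowest. Fam107a had array 2 the highest and array 3 the lowest. Sult1a1 ran the opposite way, 3 over 2 over 1. Among all tested probes the order 1 over 2 over 3 was held by 18.4%, and among the 120 called higher it was held by 28.3%. The number in that order was also 6 in the deposited signals without normalization, with both alternative background corrections and with median scaling or cyclic loess. In hSRY-OFF, where array numbers have no relation to those of hSRY-ON in the labels, Sgk1, Errfi1 and probe ILMN_3150811 of Tsc22d3 also ran from array 1 down to array 3, over ranges of 0.11, 0.10 and 0.32.

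Array 1 exceeded array 3 by 0.29 to 0.81 in the 6 probes with the common order and by 0.88 in Fam107a, while 13.5% of all tested probes had a distance of at least 0.29 in that direction and the median over all of them was 0.00063. Relative to the hSRY-OFF mean, the 9 probes had a median of 0.68 on array 1, 0.34 on array 2 and 0.11 on array 3. All 9 lay above every hSRY-OFF array on arrays 1 and 2, and 4 did on array 3, whereas 34.2%, 32.6% and 31.2% of all tested probes did on arrays 1, 2 and 3. Among the 3933 tested probes higher by at least 0.12, the smallest difference among the members, the shares were 78.5%, 73.3% and 70.3%. Without Sult1a1 and Fam107a, the median of the other 7 on array 3 was -0.0019, and array 1 was the highest in all 7. With 3 arrays in a group, these orders describe these brains and carry no test.

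**Figure D2:**
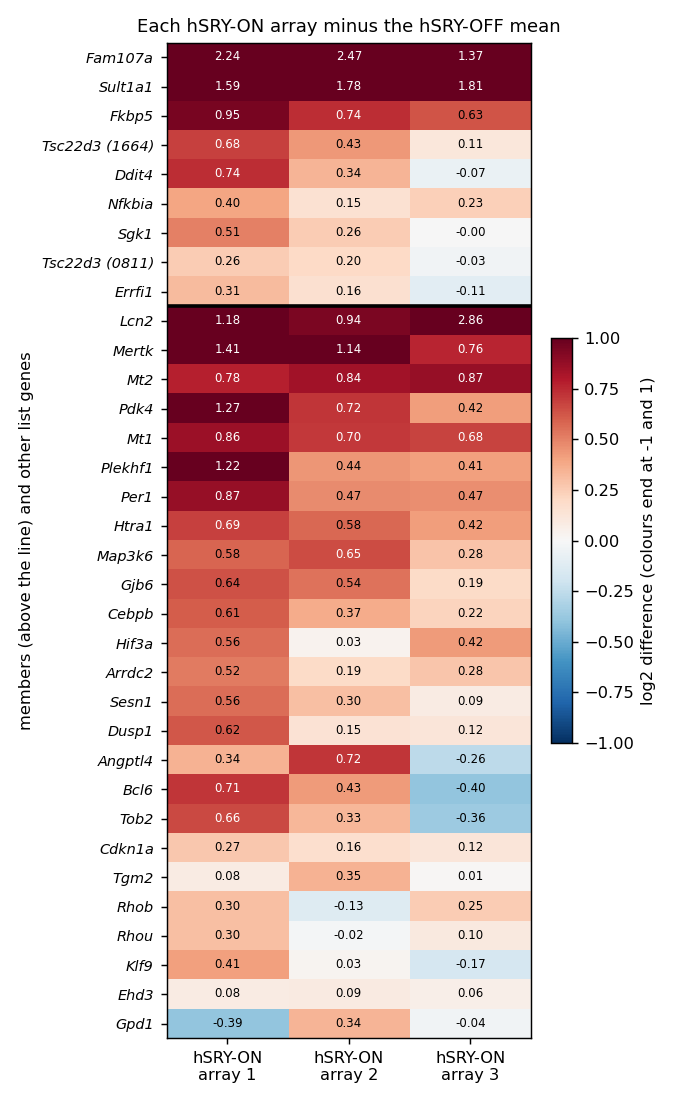
Log2 difference of each hSRY-ON array from the mean of the 3 hSRY-OFF arrays, for the 9 member probes above the line and the 25 other list genes below it, in order of their mean difference, with colours ending at -1 and 1. Most rows pale from array 1 to array 3, among them Ddit4, Sgk1 and Errfi1, whereas those of Sult1a1, Mt2 and Lcn2 were highest on array 3.

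The other genes of the response came from a list of 32 symbols, with Plin4 also under its older symbol S3-12, known to rise after glucocorticoids in various tissues, with the brightest probe of each. Of these, 25 were tested. Glul, Rasd1, Plin4 (probe under S3-12), Tiparp and Xdh were below background on all 6 arrays, and Cebpd was not analysed here. Among the 25 genes, 24 had a higher mean in hSRY-ON, 3 were called higher and 0 lower by limma (12 had an unadjusted p under 0.05, as did 20.9% of all tested probes), and the groups did not overlap for 12, all of them higher. These shares stand beside the 0.844% called higher and the 13.5% without overlap over all tested probes. The list was written with earlier results of these data known, so its counts and p-values are a description and no independent test. Of the 25, 23 were detected on all 6 arrays, and 22 of these were higher, 11 without overlap, with a median difference of 0.31 and a range of -0.030 (Gpd1) to 1.11 (Mertk). The others were Hif3a, detected on 2 hSRY-OFF and 3 hSRY-ON arrays, and Lcn2, detected on no hSRY-OFF array, so that Lcn2 was tested only through the group in which it was higher.

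The 3 called genes were Mt1 and Mt2, metallothioneins that bind zinc and copper, and Mertk, a receptor by which glia engulf cell debris. Mt1 read 13.77, 13.81 and 13.72 in hSRY-OFF and 14.62, 14.47 and 14.44 in hSRY-ON, and rose by 0.75 (SE 0.083, limma adjusted p 0.0243). Mt2 read 6.27, 6.16 and 5.95 in hSRY-OFF and 6.91, 6.97 and 7.00 in hSRY-ON, and rose by 0.83 (SE 0.10, limma adjusted p 0.0263). The 3 hSRY-ON values of Mt2 lay within 0.095 of each other, with array 3 the highest. Mertk read 7.42, 7.23 and 6.96 in hSRY-OFF and 8.61, 8.35 and 7.96 in hSRY-ON, and rose by 1.11 (SE 0.19, limma adjusted p 0.0386). Its order of the hSRY-ON arrays was that of Fkbp5 and Ddit4. Over all 31 tested probes of the list the limma count was 3. Leaving out any hSRY-OFF array, or array 1 or 2 of hSRY-ON, gave 0, when 12, 17, 13, 11 and 17 probes in that order had an unadjusted p under 0.05, as did 2236 to 2690 of all tested probes (at most 19.3%), and 0 or 1 of all probes were called in each of these fits. Leaving out array 3 of hSRY-ON gave 6, among 417 called in all. Without background correction the differences of Mt2 and Mertk were 0.32 and 0.65.

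A further 9 list genes had groups that did not overlap and did not pass the threshold. Pdk4, a kinase that turns off pyruvate dehydrogenase and so spares glucose, read 6.91, 6.82 and 6.95 in hSRY-OFF and 8.16, 7.61 and 7.31 in hSRY-ON (difference 0.80, SE 0.20, limma adjusted p 0.0866). Per1, a clock gene with its own response to the hormone, read 9.42, 9.13 and 9.12 against 10.10, 9.70 and 9.69 (difference 0.60, SE 0.14, limma adjusted p 0.0780). Both genes were highest on hSRY-ON array 1. Gjb6, an astrocyte connexin, differed by 0.46, the transcription factor gene Cebpb by 0.40, the secreted protease gene Htra1 by 0.56 and the kinase gene Map3k6 by 0.51. Plekhf1 differed by 0.69 at this probe (0.43 without hSRY-ON array 1) and by 0.43 at its dimmer probe, where the groups overlapped. The cell cycle inhibitor gene Cdkn1a differed by 0.19, 0.30 and 0.26 at its 3 probes, without overlap at any of them. The iron-carrier gene Lcn2, an acute-phase gene, stood apart with 4.76, 5.14 and 4.74 in hSRY-OFF and 6.06, 5.82 and 7.74 in hSRY-ON. Since its hSRY-OFF values were not above background, no fold and no test are given for it. Array 3 was here 1.68 above array 1, the reverse of most of the list. Without background correction the difference was 0.42 for Pdk4, 0.23 for Plekhf1 and 0.20 for Map3k6.

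**Figure D3:**
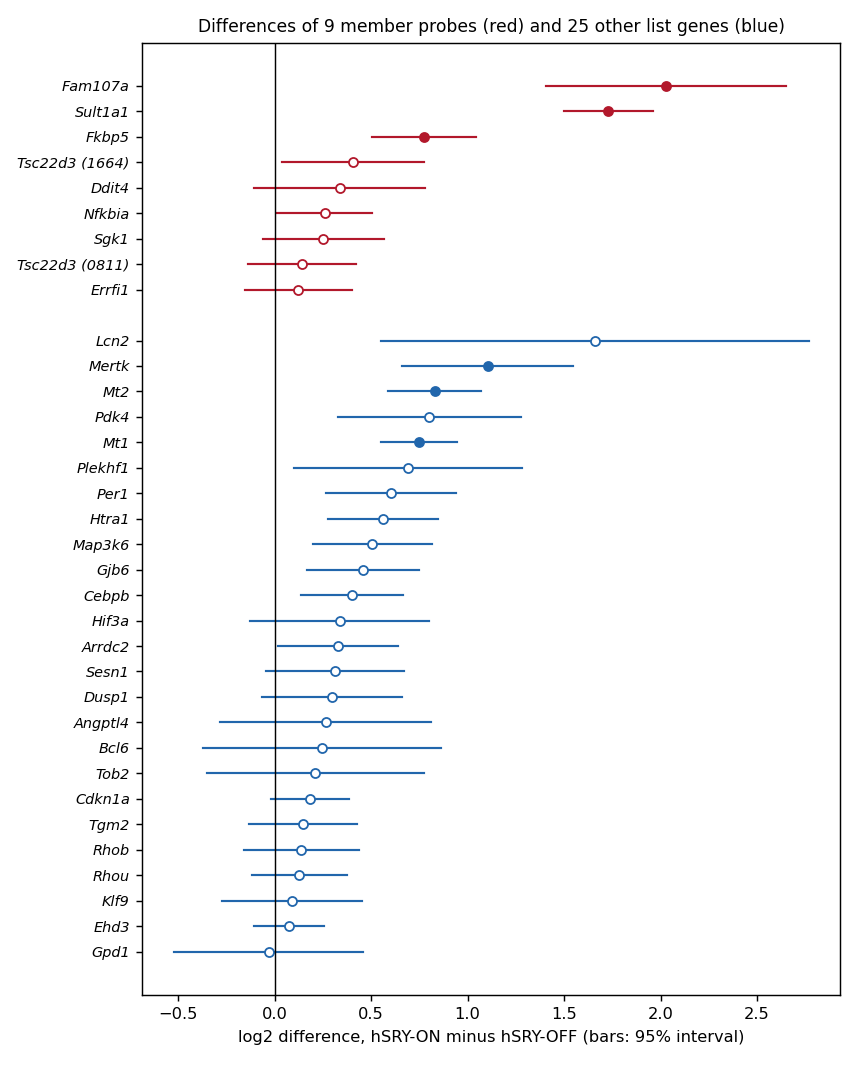
Log2 difference, hSRY-ON minus hSRY-OFF, with its 95% interval from the limma fit, for the 9 member probes (red) and the 25 other list genes (blue). Filled points had a limma adjusted p under 0.05 (Fam107a, Sult1a1 and Fkbp5 among the members, and Mertk, Mt2 and Mt1 among the others), and open points did not. The members were chosen by this difference, so that their fill is no test. The list was written with earlier results of these data known, so that its fill is no independent test. Only 1 point, Gpd1, lies below 0. The point of Lcn2 rests on hSRY-OFF values that were not above background.

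In the list, the order 1 over 2 over 3 of the hSRY-ON arrays was held by 14 of the 25 genes, against 18.4% of all tested probes, and array 3 was the lowest in 18, against 36.1%. Relative to the hSRY-OFF mean, the median of the 25 was 0.61 on array 1, 0.37 on array 2 and 0.22 on array 3. The widest spans in this direction were those of Bcl6, a transcriptional repressor, and Tob2. Bcl6 read 9.58, 9.43 and 9.47 in hSRY-OFF and 10.20, 9.92 and 9.09 in hSRY-ON, and Tob2 read 7.80, 7.67 and 7.74 against 8.40, 8.07 and 7.38. Array 3 was below every hSRY-OFF array for both, and their means differed by 0.25 (interval -0.37 to 0.86) and 0.21 (interval -0.35 to 0.77). Leaving out hSRY-ON array 3 moved them to 0.57 and 0.50, and leaving out hSRY-ON array 1 to 0.011 and -0.015.

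**Figure D4:**
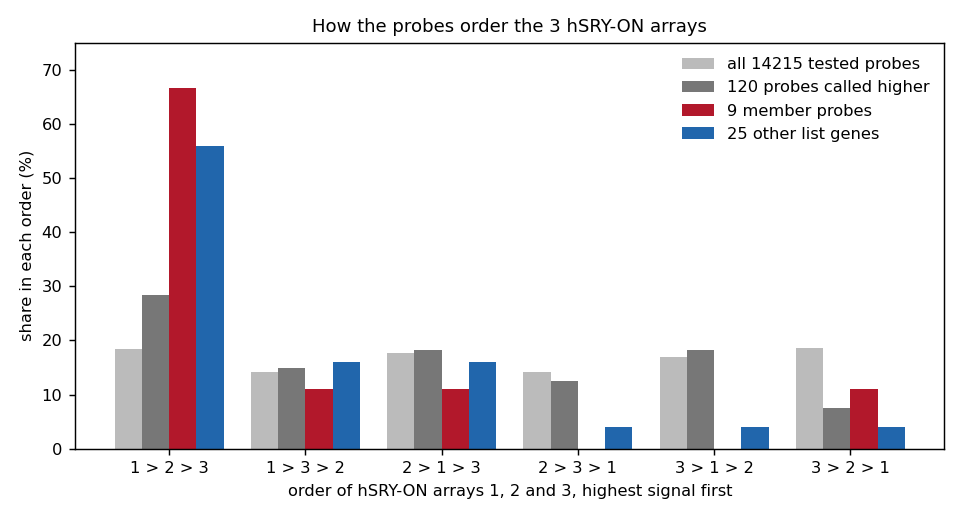
Share (%) of probes or genes in each of the 6 possible orders of hSRY-ON arrays 1, 2 and 3, highest signal first, for all 14215 tested probes, the 120 called higher, the 9 member probes and the 25 other list genes. The first order holds 6 of 9 members and 14 of 25 other genes, against 18.4% of all tested probes.

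Profiles most like the mean standardized profile of the 8 genes over the 6 arrays were then sought among 817 tested probes that differed by at least 0.5 and were outside the lists above. The 5 closest were Slc2a1, Jmjd1a, Fas, Ak3 and Cdk3, with Pearson correlations of 0.992, 0.992, 0.990, 0.988 and 0.987. The points share their arrays and the contrast between genotypes, so the values are a description without a test. Slc2a1, the glucose transporter of the blood-brain barrier, read 10.81, 10.68 and 10.58 in hSRY-OFF and 11.64, 11.26 and 10.98 in hSRY-ON. It is also one of the endothelial markers read below. Fas, a death receptor gene, read 5.18, 5.29 and 5.12, none of them above background, against 6.31, 5.99 and 5.60, so its correlation and rank rest partly on values at background. Without background correction Cdk3 differed by 0.18, against 0.57 with it, and Ak3 by 0.47 against 0.53. These and Fas then lay below the 0.5 used to choose the probes, while Slc2a1 and Jmjd1a stayed above it. All 5 had hSRY-ON array 1 the highest and array 3 the lowest. The members' own correlations with that profile, to which each contributes, ran from 0.76 for probe ILMN_3150811 of Tsc22d3 to 0.95 for Sgk1, with 0.80 for Sult1a1.

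Genes that set hormone levels and response were read beside them. Hsd11b1, which regenerates active corticosterone from its inactive form, had lower means in hSRY-ON at the 3 of its 4 probes that were tested (the fourth was below background on all arrays), with no overlap between the groups, by -0.57 (limma adjusted p 0.0263), -0.45 (0.0698) and -0.41 (0.0730). On leaving out each array in turn, the first probe was called in 1 of 6 fits, that without hSRY-ON array 3, with limma adjusted p of 0.0350 to 0.109. At that probe hSRY-ON arrays 1 to 3 read 8.82, 8.81 and 8.81. Hsd11b2, which inactivates the hormone, differed by -0.24 (limma adjusted p 0.564, and -0.46 to -0.070 over the other settings). The only probe for the receptor, Nr3c1, was below background on all 6 arrays, and Nr3c2 was not analysed here.

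Markers of the cell types of the brain were read on the same arrays. A sum of linear signals is set mainly by its brightest probes. Ttr made up most of the choroid plexus sum, Hba-a1 most of the blood sum and Stmn2 most of the neuronal sum. As the summed linear signal of the tested markers, endothelium (9 of 12 markers tested, with Abcb1a, Kdr and Slco1a4 below background on all arrays) ran from 9580 to 10040 in hSRY-OFF and from 9407 to 10078 in hSRY-ON, with 4 markers higher, 5 lower and 0 called in limma. Astrocyte markers (9 of 10 tested, S100b below background) summed to 44334 to 44518 in hSRY-OFF and 48341, 43528 and 42646 on arrays 1, 2 and 3 of hSRY-ON, with 4 higher, 5 lower and Aqp4 and Gfap called lower. Microglial markers (8 of 9 tested, Itgam below background) summed to 3050 to 3405 and 3708 to 4090, with 6 higher and 0 called. Oligodendrocyte markers (7 of 7 tested) all had lower means, with sums of 30856 to 39011 and 23624 to 24365 and Mobp called. Choroid plexus markers (5 of 5 tested) all had higher means, with sums of 14969 to 17981 and 18377 to 22980 and 0 called. Neuronal markers (4 of 8 tested, Snap25 and Nefl below background and Map2 and Rbfox3 not analysed here) summed to 38699 to 43072 and 41906 to 44170, 2 higher and 2 lower, with Gap43 called higher. Blood markers (3 of 3 tested) summed to 32484 to 36940 in hSRY-OFF and 36357, 31416 and 29080 on arrays 1, 2 and 3 of hSRY-ON, with 1 higher, 2 lower and 0 called. At an unadjusted limma p under 0.05 the 4 lists without a call had 7 (endothelium), 2 (microglia), 3 (choroid plexus) and 0 (blood) markers. The lists with a call had 6 of 7 (oligodendrocytes), 4 of 9 (astrocytes) and 1 of 4 (neurons). Of all tested probes 20.9% had such a p. The sums of astrocyte and blood markers had the same order of the hSRY-ON arrays as most members, though among single markers only 2 of the 9 of astrocytes (Slc1a3 and Gja1) and 2 of the 3 of blood (Alas2 and Hba-a1) had it, and the part of any cell type in the members' values was not tested.

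The arrays were of like brightness, with median deposited signals of 204 to 220 in hSRY-OFF and of 210, 200 and 205 for arrays 1, 2 and 3 of hSRY-ON, an order that Nfkbia alone of the members had. Across probes, which share their arrays and are no replicates, the hSRY-ON arrays correlated with the hSRY-OFF mean at 0.989, 0.991 and 0.991. Array 1 also lay farthest from that mean over the tested probes, with a median absolute log2 difference of 0.184, against 0.159 and 0.158 for arrays 2 and 3, and its part in the members' order was not tested. The male label was checked with Xist, below background at both probes on all arrays, and Ddx3y, detected on all arrays at 1 of its 3 probes. Activation of the transgene was not measured on these arrays.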

How the data were processed

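Whole-brain RNA was hybridized to MouseRef-8 v2.0 arrays, 3 per genotype, and samples were grouped by the genotype in their titles. The authors deposited, for each of 25697 probes, a mean bead signal intensity on a linear scale, with no normalization stated, and a detection p-value, the share of negative controls at least as bright. The methods name the R package TCC without settings, and the submitters' processing notes name limma.

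Signals were corrected with limma's normexp model using the detection p-values (offset 16), quantile normalized and put on the log2 scale, in R 4.3.3 with limma 3.58.1. The correction spreads dim probes more widely. A detection p under 0.05 on at least 3 of 6 arrays was required of a probe, and those that passed were tested across all genes with lmFit and eBayes (14215 probes, two-sided, Benjamini-Hochberg adjustment, calls at an adjusted p under 0.05). Intervals are 95% from this fit, and each SE is its moderated SE, with a probe's variance shrunk towards that of all tested probes. Where a list is counted by gene, the probe with the highest mean was used. Named were the members, list genes that were called or had groups without overlap, 4 receptor and enzyme genes, and the 5 closest profiles. Bcl6, Tob2 and Gpd1 were named after their values were seen. The members and lists were chosen with earlier results of these data known. The fit was tested on simulated data. The labels do not say that the samples of a group came from separate litters, so p-values measure only the spread between these samples. Their number, 3 per group, limits the precision. Promoter motifs and counts came from Python 3.11.15 (figures, matplotlib 3.10.9).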

Additional observations from a re-analysis of the deposited data

How the results depend on the processing

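Settings varied were the background correction, the normalization, the filter, the prior, the replicate block and leaving out each array. The deposited signals without normalization were added after seeing the data. Over the alternatives run, 33 probes (the members, the named list genes, the enzymes and the 5 closest profiles) gave 449 values, of which 41 lost a call, 46 gained one and 3 changed sign. Tob2 ran from -0.015 to 0.50 and Gpd1 from -0.21 to 0.15 when each array was left out. The number of members called (3) was 0 with the replicate block (limma, 4 at an unadjusted p under 0.05) and 0 to 3 when each array was left out. The number of other list probes called (3) was 11 without background correction, 9 with normexp on the signals and an offset of 50, 6 with a detection p under 0.01 on all 6 arrays, 12 with a trend in the prior, 0 with the replicate block (limma, 17 at an unadjusted p under 0.05) and 0 to 6 when each array was left out. Calls over all probes moved from 308 to 1317, 860, 705, 1434 and 0 under the first 5 of these settings. The list counts of 11, 9 and 12 include Lcn2, which was tested only through hSRY-ON. With no filter on dim probes, 2 other list probes were called. The cause of these shifts was not tested, except that the stricter filter tested fewer probes (11619). The median difference of the members ran from 0.19 to 0.53 when each array was left out, and the number of members in the order 1 over 2 over 3 was 6 in each setting that gave it. The replicate numbers are shared between the groups only as numbers. Deviations from the group means of same-numbered arrays correlated at 0.040, 0.029 and 0.025, below the limit for a paired design, although all 6 arrays correlated best with their own number, which is a hint from the data and not from the design. Signal over background limits the dim probes, whose differences moved by over 1.5 times without background correction (Fam107a from 2.03 to 1.35, Tsc22d3 at ILMN_2701664 from 0.41 to 0.23).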
